A study of Homo sapiens with 10 samples.

Results

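Fatty acid synthesis and desaturation is described here through 10 genes, ACLY, ACACA, FASN, ACSS2, SCD, ELOVL5, ELOVL6, FADS1, FADS2 and ME1. They were chosen by gene symbol, and 10 of the 22626 rows of the read count table carry 1 of these symbols. ARPE-19 is an established human line of retinal pigment epithelium (RPE), the cell layer that supports the photoreceptors, and its RNA was sequenced after 48 h in control or high glucose medium to find genes that respond to high glucose. All cells were grown in DMEM with 10% fetal bovine serum. The control medium held 5.5 mM glucose and, in addition, 32 mM mannitol, a sugar alcohol used to balance dissolved molecules, whereas the high glucose (HG) medium held 37.5 mM glucose, and no mannitol is named for it. More glucose thus came with less mannitol, and the contributions of the pair cannot be told apart. Each group had 5 libraries. Control libraries are called control replicates 1 to 5, and the high glucose libraries HG_1 to HG_5 after their columns in the table. The labels do not say whether the libraries came from separate cultures, so that every p-value measures the spread between libraries, which may be technical.

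Cells build fatty acids from acetyl-CoA in the cytosol. ACLY makes it from citrate and ACSS2 from acetate, ACACA turns it into malonyl-CoA, FASN joins these units into palmitate, and ME1 supplies part of the NADPH that this needs. ELOVL6 lengthens palmitate and SCD puts the first double bond into saturated chains, while FADS2, ELOVL5 and FADS1 desaturate and lengthen the polyunsaturated fatty acids of the diet, which photoreceptor membranes next to the RPE hold in large amounts. Many of these genes are known targets of the sterol-regulated SREBP transcription factors, which work together with NF-Y, a factor that binds CCAAT.

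The stretches before the transcription starts of SCD and ACSS2, the genes with the largest changes among the 10, and of ACLY, which makes the same product as ACSS2, are shown because all of them hold CCAAT; that of ME1 is shown beside them as a stretch that holds none. FADS1, ELOVL6 and ME1 have no window with CCAAT, and their log2 fold changes (high glucose over control) were 0.74, 0.33 and 0.26. Those of the genes with CCAAT ran from 0.19 (ELOVL5) to 1.23 (SCD). The relation of CCAAT to the size of the change was not tested. The capitals mark CCAAT or its reverse complement ATTGG. Each sequence runs 5′ to 3′ on the strand of its gene (RefSeq, GRCh38.p14) and is the longest part of the 250 bases before the start that no exon of GENCODE release 29 touches: for SCD chr10:100346983-100347123 (plus strand), for ACSS2 chr20:34874739-34874941 (plus strand), for ACLY chr17:41919023-41919272 (minus strand) and for ME1 chr6:83431072-83431301 (minus strand).
SCD: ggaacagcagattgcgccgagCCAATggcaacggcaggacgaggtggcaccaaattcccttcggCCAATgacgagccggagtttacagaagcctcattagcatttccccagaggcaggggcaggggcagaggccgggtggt
ACSS2: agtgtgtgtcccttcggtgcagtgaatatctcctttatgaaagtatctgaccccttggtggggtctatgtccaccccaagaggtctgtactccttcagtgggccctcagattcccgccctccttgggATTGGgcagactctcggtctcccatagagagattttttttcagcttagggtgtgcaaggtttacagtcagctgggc
ACLY: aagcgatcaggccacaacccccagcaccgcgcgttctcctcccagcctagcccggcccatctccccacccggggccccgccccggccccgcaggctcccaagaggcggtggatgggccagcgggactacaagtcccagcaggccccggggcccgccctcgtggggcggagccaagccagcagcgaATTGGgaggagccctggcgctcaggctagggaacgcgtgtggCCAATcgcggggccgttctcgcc
ME1: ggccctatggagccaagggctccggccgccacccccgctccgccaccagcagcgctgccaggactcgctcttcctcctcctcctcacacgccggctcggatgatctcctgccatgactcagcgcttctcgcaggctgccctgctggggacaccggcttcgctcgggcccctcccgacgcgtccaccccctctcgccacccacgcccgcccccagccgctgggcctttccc

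RefSeq promoter windows of 250 bases before to 50 bases after a start were found for 9 of the 10 genes, 14 windows in all, and not for FASN. CCAAT, read on both strands, was in 8 of the 14 windows and in 6 genes, ACACA, ACLY, ACSS2, ELOVL5, FADS2 and SCD, while 34.6% of all 35116 windows held it. The windows of ACLY overlap and hold the same CCAAT matches, which are thus counted in each window. The 34.6% is a share of windows. Some genes have several windows, and no share of all genes was computed. The match of FADS2 lies in the 50 bases after the start. ACSS2 has a further window without CCAAT. The sterol element core TCACNCCAC was in none of the 14 windows and in 1.13% of all windows. The E-box CACGTG was found in ELOVL5 alone of the 9 genes (7.26% of all windows), and the GC box GGGCGG in 11 windows of 8 genes, all but ELOVL5 (45.0% of all windows). Matches of different motifs shared no bases, whereas some neighbouring GC box matches of ACACA overlapped each other. These are letters in a window, and no binding was measured.

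Total counts per library were between 32448991 and 45864176. The 10 genes were counted between 955 times (ACSS2) and 108691 times (SCD) in a library, far above the 3 counts (0.0654 to 0.0925 CPM) that an observed 0 would still allow. Control replicate 2 and HG_1 stood apart from the other 8 libraries on the second principal component of the normalized counts. In both, log2 levels rose with the GC content of the gene, by 0.170 and 0.189 for each 10 percentage points, against slopes between -0.0916 and -0.0052 in the others. They are therefore left out in an alternative beside the results. As a check of the labels, glucose-induced TXNIP was higher by 3.15 in log2 (edgeR's adjusted p = 5.55e-05), without overlap between the groups.

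Of the RPE markers, OTX2, MITF and RLBP1 were detected in every library, whereas RPE65, the isomerase of the visual cycle, had under 10 counts in every library and BEST1 had 8707 counts in control replicate 1 and 18223 in control replicate 4, against 24 to 300 in the other 8 libraries. The summed FPKM of the 15 RPE markers was between 1549 and 1927 in the control libraries and between 992 and 1298 in the HG libraries, most of it from the keratins KRT8 and KRT18. Among the 12 tested, 0 were higher and 3 lower, PMEL, KRT18 and KRT8, while 7.8% of all rows tested were lower. Of the 9 mesenchymal markers, 6 were tested, 0 were higher and 4 lower, COL1A1, TAGLN, PDGFRB and ACTA2, with sums of 2958 to 3100 and 3058 to 3359 FPKM in the control and HG libraries, most of it from VIM, which did not pass (2761 and 3003 FPKM). CD68, a lysosomal protein of macrophages that other cells also make, was higher (log2 fold change 0.70), while PTPRC, CD14 and CD3E had under 10 counts in every library. Endothelial markers summed to at most 0.778 FPKM in any library, with KDR lower, and of the photoreceptor and glial markers 2 were tested and 0 passed. The part of these markers in the results below was not tested. In bulk RNA, fewer cells of a kind and less RNA per cell cannot be told apart.

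In high glucose, 9 of the 10 genes rose and 0 fell. SCD, ACSS2 and FADS1 rose the most, with fold changes of 2.35, 2.28 and 1.67, followed by FADS2, ACLY and FASN with 1.47, 1.41 and 1.36, and by ELOVL6, ME1 and ELOVL5 with 1.26, 1.20 and 1.14. ACACA, at 1.18, did not pass (the quasi-likelihood test of edgeR, Benjamini-Hochberg adjusted p = 0.145). Among all 14936 rows tested, 15.4% had an adjusted p under 0.05, 7.62% as higher and 7.8% as lower in high glucose. Those higher by more than 1.5-fold were 1.67% of all rows, against 3 of the 10 genes. The median log2 fold change was 0.47 over the 10 genes and 0.0013 over all rows tested.

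**Figure D1:**
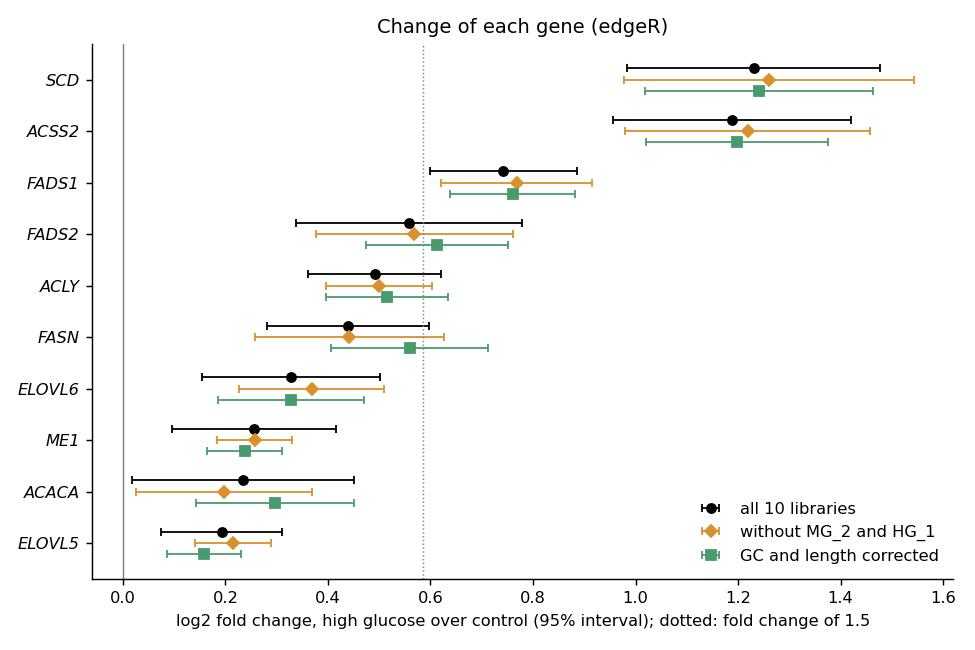
The x axis is the log2 fold change of each gene (high glucose over control, edgeR) and the bars are 95% confidence intervals. Black circles are from all 10 libraries, orange diamonds from the 8 libraries without control replicate 2 (MG_2) and HG_1, and green squares from the fit corrected for GC content and length. All points lie above 0, SCD and ACSS2 lie above 1, and the 3 fits of a gene have overlapping intervals.

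Together, the 10 genes took 0.321% of all counts in the control group (0.265% to 0.344%) and 0.553% in the high glucose group (0.507% to 0.597%). The groups did not overlap in this share. SCD alone made up 30.8% of the counts of the 10 genes in the control group (27.6% to 32.7%) and 42.6% in the high glucose group (39.4% to 44.2%). Summed FPKM, which divides by transcript length, went from 669 ± 66.7 to 1122 ± 66.8 (SD, n = 5 each).

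Per transcript length, the level in the control group was highest for FADS2 (190.1 ± 24.4 FPKM) and SCD (176 ± 29.3 FPKM), whose ranges over the libraries overlapped. ACLY (72.9 ± 5.92 FPKM), FASN (63.1 ± 6.92), ELOVL5 (59.0 ± 2.73) and FADS1 (55.2 ± 4.55) followed, and neighbours in this order overlapped. ME1 was at 19.2 ± 1.80 FPKM, ELOVL6 at 14.0 ± 1.23, ACSS2 at 12.4 ± 1.68 and ACACA at 6.60 ± 1.32 (SD, n = 5), where of the neighbours only ELOVL6 and ACSS2 overlapped. In high glucose the order opened with SCD (416.5 ± 41.7 FPKM), every library of which lay above every value of FADS2 (279 ± 23.7 FPKM). ACLY was at 103 ± 8.61 FPKM, FADS1 at 92.5 ± 8.56 and FASN at 86.3 ± 2.09, where ACLY overlapped FADS1 and FADS1 overlapped FASN. ELOVL5 (67.8 ± 5.77 FPKM), ACSS2 (28.4 ± 2.09), ME1 (23.1 ± 2.23), ELOVL6 (18.0 ± 2.17) and ACACA (7.47 ± 0.785) closed the order, and of these only ME1 and ELOVL6 overlapped. By its mean, ACSS2 stood below ME1 and ELOVL6 in the control group and above both in high glucose. Among overlapping neighbours, the control order held within 5 of 5 libraries for ACLY over FASN and ELOVL5 over FADS1. It held in 4 for FASN over ELOVL5 and ELOVL6 over ACSS2, and in 3 for FADS2 over SCD. The high glucose order held in 5 of 5 for ACLY over FADS1 and ME1 over ELOVL6, and in 4 for FADS1 over FASN.

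**Figure D2:**
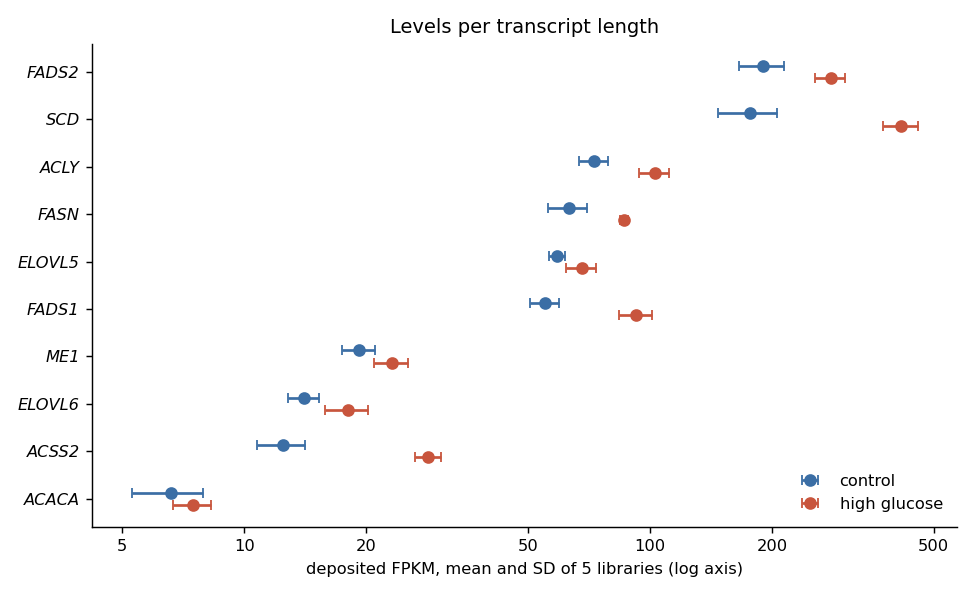
The x axis is the deposited FPKM on a log scale, with blue points for the control group and red points for high glucose, and bars for the SD of 5 libraries. Genes are ordered by their level in the control group, from FADS2 at 190.1 FPKM to ACACA at 6.60 FPKM, and SCD reaches 416.5 FPKM in high glucose.

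Acetyl-CoA is supplied by ACLY and ACSS2. ACLY (ENSG00000131473, chromosome 17, 41866908 to 41930542, minus strand, GRCh38) was at 312, 309.5, 348, 352 and 351 CPM (counts divided by the TMM-adjusted library size) in control replicates 1 to 5. In HG_1 to HG_5 it was at 425, 506, 474, 483 and 462 CPM. Every high glucose library lay above every control library, with HG_1 the lowest of its group. ACLY rose from 334 ± 21.6 to 470.0 ± 30.02 CPM (SD, n = 5 each), a log2 fold change of 0.49 (SE 0.059, edgeR's adjusted p = 0.000422). Its exons share 156 bases, 3.0% of their length, with an antisense gene on the other strand that has no row in the table.

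ACSS2 (ENSG00000131069, chromosome 20, 34872146 to 34927962, plus strand) uses acetate instead of citrate. The control replicates were at 28.96, 44.6, 39.5, 39.7 and 39.3 CPM and HG_1 to HG_5 at 94.7, 89.3, 93.0, 77.3 and 83.6 CPM. The lowest high glucose value stood well above the highest control value, and control replicate 1 was the lowest of all 10. From 38.4 ± 5.74 to 87.6 ± 7.17 CPM, ACSS2 had a log2 fold change of 1.19 (SE 0.105, edgeR's adjusted p = 9.31e-05) and ranked 113 of the 14936 rows by it.

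ACACA and FASN carry out the synthesis itself. ACACA (ENSG00000278540, chromosome 17, 37084988 to 37406818, minus strand), the carboxylase that makes malonyl-CoA, was at 63.4, 51.8, 72.7, 71.1 and 65.4 CPM in control replicates 1 to 5 and at 69.2, 78.2, 69.3, 88.4 and 76.5 CPM in HG_1 to HG_5. The groups overlapped, since control replicates 3 and 4 lay above HG_1 and HG_3. The means were 64.9 ± 8.26 and 76.3 ± 7.90 CPM (SD, n = 5 each), and the log2 fold change of 0.23 had a 95% confidence interval from 0.02 to 0.45 (edgeR's adjusted p = 0.145). With the correction for GC content and length it was 0.30 and passed (adjusted p = 0.00757 from edgeR), and over the other alternatives the adjusted p was between 0.0860 and 0.402. The FPKM of ACACA also followed its counts loosely: the ratio of FPKM to count, after scaling, varied by 26.6% between libraries, against at most 3.7% for the other 9 genes.

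FASN (ENSG00000169710, chromosome 17, 82078333 to 82098332, minus strand), the enzyme that assembles palmitate, was at 466, 596, 601, 603 and 617 CPM in the control replicates. HG_1 to HG_5 were at 805, 790.2, 797, 766 and 752 CPM. The HG libraries lay close together and above all control libraries, of which replicate 1 stood far below the other 4. FASN rose from 577 ± 62.3 to 782 ± 22.2 CPM, by 0.44 on the log2 scale (SE 0.0718, edgeR's adjusted p = 0.00228), and without control replicate 1 the log2 fold change was 0.37.

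ME1 (ENSG00000065833, chromosome 6, 83210389 to 83431071, minus strand), the cytosolic malic enzyme, was at 70.7, 59.8, 69.8, 74.8 and 71.7 CPM in the control replicates and at 71.5, 87.2, 84.7, 85.3 and 85.4 CPM in HG_1 to HG_5. Of the high glucose libraries, HG_1 alone fell among the control values. From 69.35 ± 5.67 to 82.8 ± 6.39 CPM, the log2 fold change was 0.26 (SE 0.0726, edgeR's adjusted p = 0.0363). The call lay close to the threshold and was kept in 8 of 20 alternatives, and over all 20 the adjusted p was at most 0.0871 (edgeR, DESeq2 or limma).

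**Figure D3:**
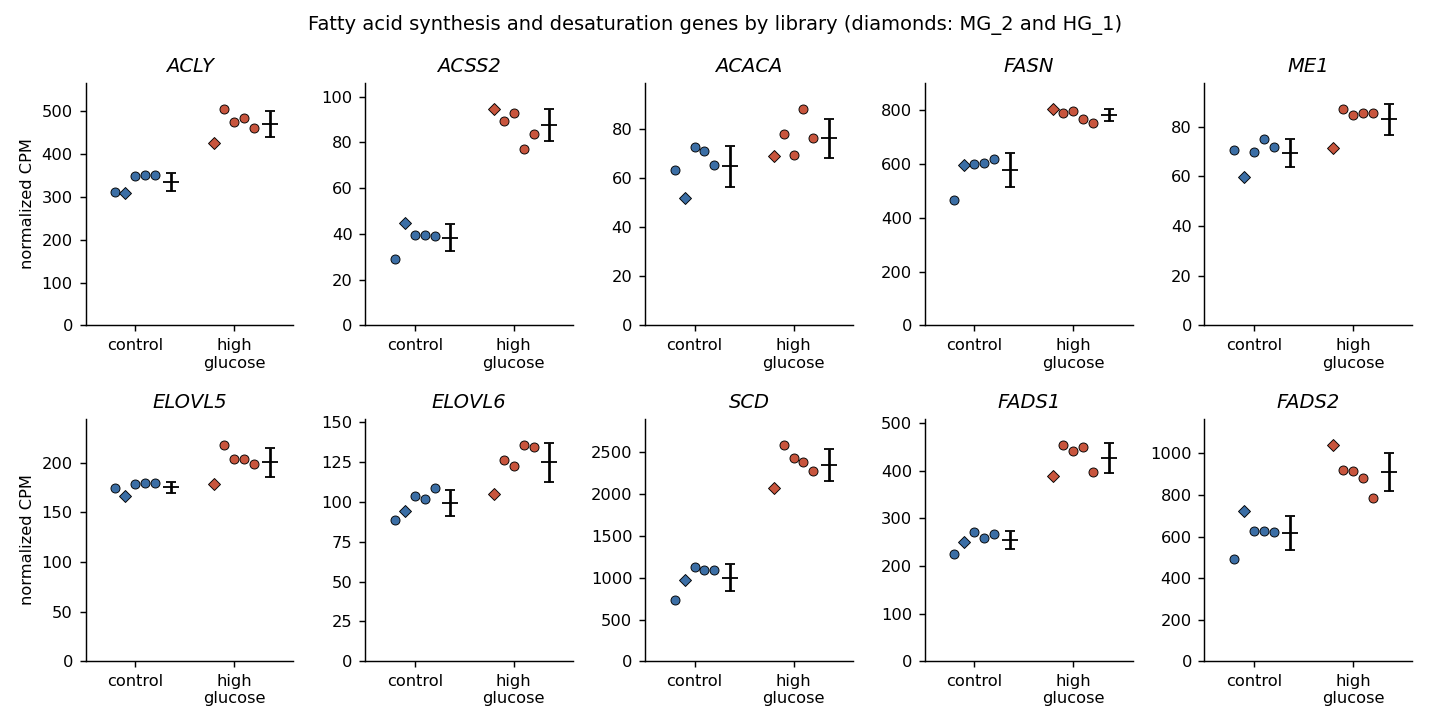
Each panel shows 1 gene, with normalized CPM on the y axis from 0, blue points for control replicates 1 to 5 and red points for HG_1 to HG_5 from left to right, and beside them the mean and SD of each group. Diamonds are control replicate 2 (MG_2) and HG_1, and the groups do not overlap for ACLY, ACSS2, FASN, SCD, FADS1 and FADS2.

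Of the elongases, ELOVL6 (ENSG00000170522, chromosome 4, 110045846 to 110199199, minus strand) acts on saturated chains. It was at 88.4, 94.2, 103, 101 and 108 CPM in control replicates 1 to 5, and at 105, 126, 122.5, 136 and 134 CPM in HG_1 to HG_5. Only HG_1 overlapped the control values, below replicate 5. ELOVL6 rose from 99.1 ± 7.85 to 124.5 ± 12.4 CPM (SD, n = 5 each), by 0.33 on the log2 scale (SE 0.0787, edgeR's adjusted p = 0.0172).

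ELOVL5 (ENSG00000012660, chromosome 6, 53267398 to 53349179, minus strand), which lengthens polyunsaturated chains, was at 174, 166, 178.5, 179 and 179 CPM in the control replicates. In HG_1 to HG_5 it was at 178, 218, 204, 203 and 199 CPM. Again HG_1 alone lay within the control values, just below replicates 3 to 5. The means of 175.5 ± 5.59 and 200.5 ± 14.5 CPM gave the smallest log2 fold change of the 10 genes, 0.19 (SE 0.0536, edgeR's adjusted p = 0.0338). This call was kept in 7 of 20 alternatives, and over all 20 the adjusted p was at most 0.0835 (edgeR, DESeq2 or limma).

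Of the desaturases, SCD makes monounsaturated fatty acids such as oleate. The gene (ENSG00000099194, chromosome 10, 100347124 to 100364834, plus strand) was at 732, 966, 1124, 1087 and 1089 CPM in control replicates 1 to 5 and at 2070, 2588, 2422, 2375 and 2273 CPM in HG_1 to HG_5. The lowest high glucose library was far above the highest control library, and control replicate 1 and HG_1 were the lowest of their groups. SCD rose from 999.8 ± 161 to 2346 ± 192 CPM (SD, n = 5 each), with a log2 fold change of 1.23 (SE 0.112, 95% confidence interval 0.98 to 1.48, edgeR's adjusted p = 0.000102), rank 103 of 14936.

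FADS1 (ENSG00000149485, chromosome 11, 61799625 to 61829318, minus strand) puts the last double bond into arachidonate and eicosapentaenoate. It was at 226, 250.4, 272, 259 and 268 CPM in the control replicates and at 389, 455, 440.5, 450.5 and 397 CPM in HG_1 to HG_5. The groups were separated by a wide gap, with HG_1 and HG_5 the lowest in high glucose. FADS1 rose from 255 ± 18.4 to 426.5 ± 30.9 CPM, by 0.74 on the log2 scale (SE 0.065, edgeR's adjusted p = 9.17e-05).

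FADS2 (ENSG00000134824, chromosome 11, 61792980 to 61867354, plus strand) starts the same series of reactions. Its values were 491, 725, 626, 626 and 622 CPM in the control replicates and 1043, 923, 914, 882 and 787 CPM in HG_1 to HG_5. Control replicate 2 and HG_1 were the highest of their groups, and HG_5 still lay above replicate 2. FADS2 rose from 618 ± 83.0 to 909.9 ± 91.9 CPM, by 0.56 on the log2 scale (SE 0.0997, edgeR's adjusted p = 0.00373). In GENCODE release 29, FADS1 lies within the span of FADS2 on the other strand. The RefSeq start of FADS1 at 61817003 lies 599 and 800 bases inside FADS2 from the FADS2 starts at 61816404 and 61816203, so that the transcribed stretches cross. Their exons share 490 bases on opposite strands, 4.8% of those of FADS1 and 4.4% of those of FADS2, and FADS2 shares 49 exon bases with FEN1 on the same strand. Whether the counting used strand is not given in the sources used here.

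Every high glucose library lay above every control library in 6 of the 10 genes, ACLY, FASN, ACSS2, SCD, FADS1 and FADS2, against 6.74% of all rows tested. In the other 4, ACACA, ME1, ELOVL5 and ELOVL6, HG_1 was within the control values. Without control replicate 2 and HG_1, 9 genes did not overlap, all but ACACA, against 15.1% of all rows with these 8 libraries. In that fit 9 genes passed in edgeR as higher, against 13.3% of all rows (27.1% in either direction), and the median log2 fold change was 0.47. HG_1 was the highest high glucose library for FASN, FADS2 and ACSS2, whose longest coding transcripts have the most GC of the 10, 65.3%, 60.7% and 54.6%, and the lowest for the other 7, with 39.5% (ME1) to 52.2% (ACLY). Corrected for GC content and length, all 10 genes passed in edgeR as higher, against 14.5% of all rows (29.4% in either direction), with a median log2 fold change of 0.54. The largest shift was that of FASN, from 0.44 to 0.56.

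Ratios between pairs of genes within a library, which do not depend on how libraries are scaled, tested whether partners in the pathway changed by different amounts (6 pairs, two-sided exact permutation test, adjusted over the 6). The ratios are not corrected for GC content, in which partners differ (SCD 47.1%, FASN 65.3% in their longest coding transcripts). They were not computed with control replicate 2 and HG_1 both left out. Counts of SCD per count of FASN went from 1.72 to 2.99, a difference of 0.80 in log2 (exact p = 0.00794, adjusted p = 0.0159). Counts of ACSS2 per count of ACLY went from 0.114 to 0.186, a difference of 0.71 in log2 (exact p = 0.00794, adjusted p = 0.0159). ME1 per ACLY went the other way, from 0.207 to 0.176, a difference of -0.23 in log2 (exact p = 0.00794, adjusted p = 0.0159). In these 3 pairs the groups did not overlap, and this p is the smallest that 5 against 5 libraries allow.

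The other 3 pairs did not pass. FADS1 per FADS2 differed by 0.18 in log2 (control -1.27 ± 0.157, high glucose -1.09 ± 0.188, exact p = 0.143, adjusted p = 0.143), where control replicate 2 at -1.53 and HG_1 at -1.42 were the lowest of their groups. Without HG_1 the difference was 0.26 and passed the same exact test (adjusted p = 0.0238), and without control replicate 2 it was 0.11 and did not (exact test, adjusted p = 0.278). ELOVL6 per ELOVL5 differed by 0.14 (exact p = 0.0714, adjusted p = 0.107) and ACACA per FASN by -0.21 (exact p = 0.135, adjusted p = 0.143).

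**Figure D4:**
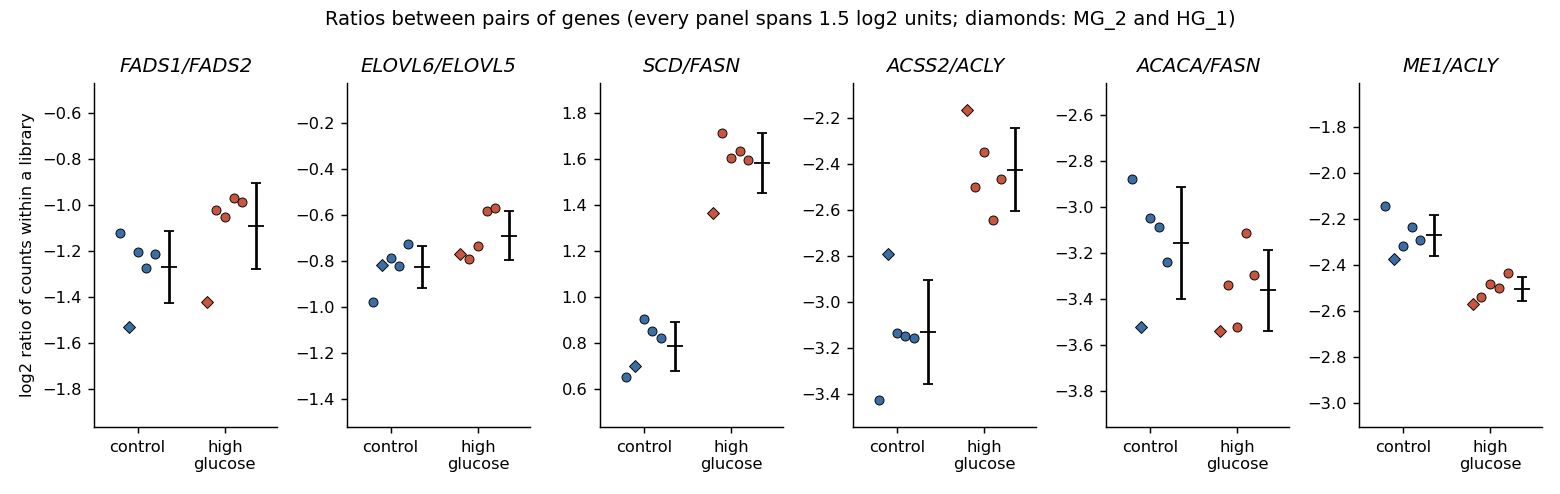
The y axes give the log2 ratio of the counts of 2 genes within a library, each panel spanning the same height, with blue points for control and red points for high glucose libraries and bars for mean and SD. Diamonds are control replicate 2 (MG_2) and HG_1. The groups are separate for SCD/FASN, ACSS2/ACLY and ME1/ACLY and overlap in the other 3 panels.

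Beyond the 10 genes, the sterol list moved in the same direction. Of 23 tested genes of sterol synthesis and uptake, 21 rose and 0 fell, with a median log2 fold change of 0.63, where 7.62% of all rows were higher and 7.8% lower. Without control replicate 2 and HG_1, and also with the GC correction, 21 were higher and 1 lower, PMVK, named after its values were seen. Among them were IDI1 (1.14), HMGCS1 (1.06) and MVD (1.02) of the mevalonate arm. A shared set of control and high glucose libraries underlies both lists, and no test compared them.

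Calls in the lists that follow are to be read against the 15.4% of all rows called in either direction, 27.1% without control replicate 2 and HG_1 and 29.4% with the GC correction. Of 23 tested other enzymes of the acyl chain, 3 rose and 0 fell, near the 15.4%, with a median of 0.10. The 3 were IDH1, a cytosolic source of NADPH (0.62), MID1IP1, which helps acetyl-CoA carboxylase to polymerize (0.51), and HSD17B12, the reductase of the elongation cycle (0.49). The closest relatives of the 10 genes did not pass in edgeR: ACACB, the carboxylase at the mitochondrion, was at 0.11 (adjusted p = 0.462), SCD5 at -0.24 (adjusted p = 0.0596) and FADS3 at -0.18 (adjusted p = 0.179). Every high glucose library was below every control library for SCD5. Without control replicate 2 and HG_1, this list held 5 higher genes and 4 lower ones, SCD5 and FADS3 among the latter.

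In the list of acyl-CoA synthetases and glyceride synthesis, 3 of 19 tested genes rose and 0 fell (median -0.02). These were LPIN1, a phosphatidate phosphatase (0.56), ACSL1, which activates long-chain fatty acids (0.50), and GPAM, the mitochondrial glycerol phosphate acyltransferase (0.48). Among 21 genes of fatty acid oxidation, 2 rose and 1 fell (median 0.12): CPT1A, which admits fatty acids to the mitochondrion (0.22), HADHB of the trifunctional protein (0.25) and CPT1C, a neuronal relative of CPT1A (-0.56). Without control replicate 2 and HG_1, the first of these lists held 4 higher and 1 lower gene and the second 5 and 2. Of 7 cytosolic sources of NADPH, 3 rose and 0 fell (median 0.25), IDH1, PGD of the pentose phosphate pathway (0.29) and ME1, and this count was 1 without control replicate 1, 3 or 5. With 3 calls each among 19 and 21 genes, the lists of glyceride synthesis and of oxidation were near the 15.4% of all rows.

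The genes that control lipogenic transcription gave 1 higher and 2 lower of 19 tested, near the 15.4% of all rows, with a median of 0.04. SREBF1, which encodes the SREBP form tied to fatty acid synthesis, was at 77.3 and 81.9 CPM in the control and high glucose groups, and its log2 fold change of 0.08 had a 95% confidence interval from -0.11 to 0.28 (adjusted p = 0.610 from edgeR). SREBF2 was at 387 and 407.5 CPM, a log2 difference of 0.08 (edgeR's adjusted p = 0.300). INSIG1, itself a target of SREBP that holds the precursor in the endoplasmic reticulum, rose by 0.93, whereas MLXIP, the glucose sensor MondoA, was lower (-0.35), as was NFYB, a subunit of the CCAAT-binding NF-Y (-0.20, edgeR's adjusted p = 0.0365). With library size alone 2 genes of this list were called, and with a library left out 2 to 4. MLXIPL, the lipogenic glucose sensor ChREBP, had 0, 5, 0, 6 and 4 counts in control replicates 1 to 5 and 15, 16, 5, 7 and 10 in HG_1 to HG_5, was removed by edgeR's filter on low counts and was not called by DESeq2. Without control replicate 2 and HG_1 the list held 5 higher and 4 lower genes, and with the GC correction 6 and 3, SREBF1 and SREBF2 among the 6, in fits that called 27.1% and 29.4% of all rows. Of 10 tested genes of AMPK and carboxylase regulation, 2 rose and 0 fell (median 0.07), TRIB3, a stress-induced pseudokinase (1.27), and PRKAB1, a subunit of AMPK (0.41).

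**Figure D5:**
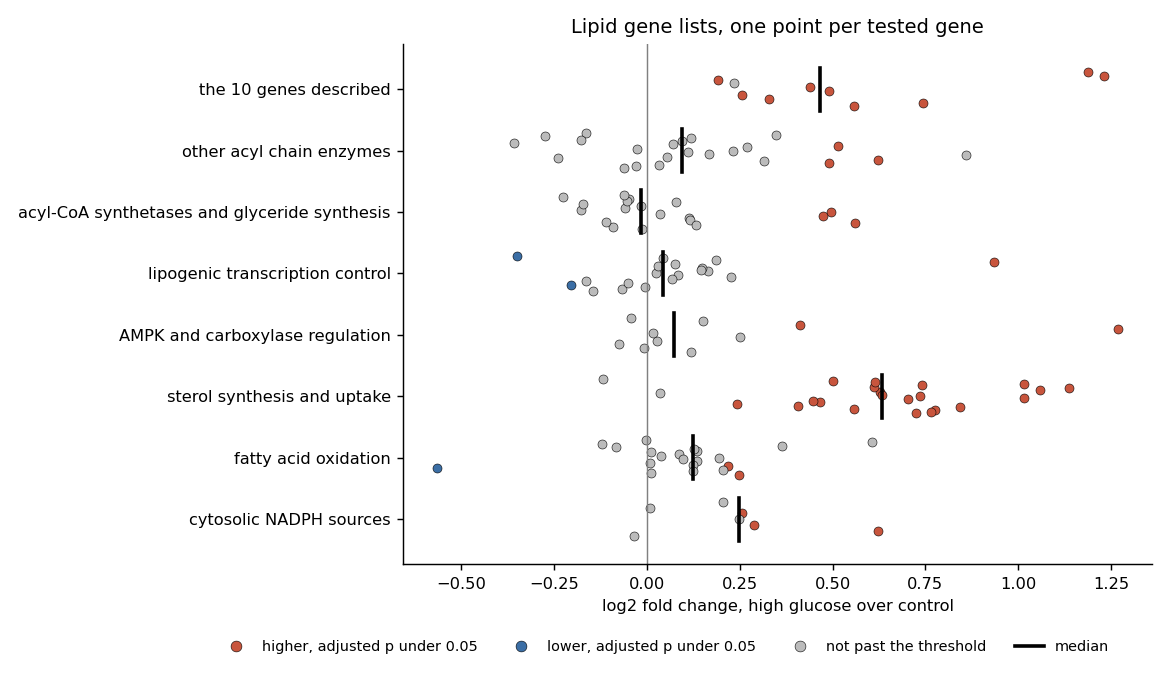
The x axis is the log2 fold change (high glucose over control, edgeR), each point is a tested gene, red where it was higher and blue where it was lower at an adjusted p under 0.05, grey otherwise, and black bars are medians. The 10 genes described have a median of 0.47 and sterol synthesis and uptake a median of 0.63, while the other lists have medians between -0.02 and 0.25.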

How the data were processed

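RNA of 10 ARPE-19 libraries, 5 control and 5 high glucose, was sequenced. The authors deposited whole-number read counts per gene, without normalization, and FPKM values of the same libraries, divided by transcript length and library size. Per the submitters' processing notes, fastp 0.20.1, HISAT2 2.2.1 and GRCh38 were used; the counting program and annotation are not given in the sources used here. Loci named MSTRG, which were kept, hold 1.34% to 1.65% of a library's counts. The 20 pairs of libraries within a group differed by 13.8 to 78.5 in chi-square per gene, so that none was merged as a library deposited again; this does not show that the cultures were separate.

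The counts were compared with R 4.3.3 and edgeR 4.0.16 (default filter on low counts, TMM normalization, quasi-likelihood test), with Benjamini-Hochberg adjustment over all 14936 rows tested and a threshold of 0.05. Normalized CPM are counts scaled by TMM library size, and log2 CPM used a prior count of 2. Alternatives were DESeq2 1.42.0, scaling by RLE or by library size alone, a filter of 10 counts in every library or none, limma 3.58.1 on FPKM with a pseudocount of 1 or 0.1 and on rows averaging 1 FPKM or more, a lowess correction (span 0.3) for GC content and length on 13538 rows, leaving out control replicate 2 with HG_1, and leaving out each library. The fits were tested on simulated data. Ratios of counts were compared with a two-sided exact permutation test.

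The 10 genes, the other gene lists, the markers and the alternatives were chosen with earlier results of these data known. Besides the 10 genes, the text names from each list the called genes with the 3 largest absolute log2 fold changes, and SREBF1, SREBF2, MLXIPL, INSIG1, HMGCS1, ACACB, SCD5, FADS3, CPT1A and TXNIP, while any other was chosen after its values were seen. Some genes are counted in the lists and not otherwise reported here. Gene positions and exons come from GENCODE release 29 on GRCh38. Protein sequences were not used here.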

Additional observations from a re-analysis of the deposited data

Results flagged for a closer look

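In groups of 5 libraries, the gap between an extreme library and its neighbour exceeded 0.71 of the range of the group in 10 of 88 groups checked, and chance would give about 4.4. For FASN, control replicate 1 was at 466 CPM and the other 4 control libraries were between 596 and 617 CPM. For ME1, HG_1 was at 71.5 CPM and the other high glucose libraries were between 84.7 and 87.2 CPM.

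The other 8 are genes of the lists beside the 10. HG_1 was below the other high glucose libraries for HSD17B12 (179 CPM against 210.4 to 222), LPIN1 (192 CPM against 267 to 272) and SCD5 (32.5 CPM against 39.4 to 40.9). HG_1 was above them for MID1IP1 (85.7 CPM against 76.7 to 78.9), PGD (112 CPM against 91.4 to 96.7) and CD68 (143 CPM against 102 to 113). Control replicate 2 was above the other control libraries for PMEL (4.35 CPM against 3.35 to 3.46) and for FADS3 (164 CPM against 141 to 144). All but that of FASN are thus in HG_1 or control replicate 2, whose log2 levels rise with GC content.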

How the results depend on the processing

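Of the 10 genes, 7 kept their direction and their side of the threshold in all 20 alternatives (ACLY, FASN, ACSS2, SCD, ELOVL6, FADS1 and FADS2). The number called was 7 with library size alone and with each limma fit on FPKM, where ELOVL5 and ME1 were lost, 10 with the GC and length correction, and 7 to 9 with a library left out. No result reversed. The rows called over the whole table, 2303, were 3975 (29.4% of rows tested) with the GC and length correction, 4035 (27.1%) without control replicate 2 and HG_1, and 1648 to 2993 with a library left out; the cause was not tested. The calls per list moved as follows. With library size alone, fatty acid oxidation had 5. With the GC correction the counts were 11 (other acyl chain enzymes), 9 (transcription control) and 7 (fatty acid oxidation), and without control replicate 2 and HG_1 they were 9, 9 and 7, with 5 for acyl-CoA synthetases and glyceride synthesis. With a library left out the ranges were 3 to 7 for other acyl chain enzymes, 2 to 5 for acyl-CoA synthetases, 3 to 6 for fatty acid oxidation and 1 to 3 for NADPH sources. ELOVL6 per ELOVL5 passed with FPKM in place of counts (0.16 in log2, exact test, adjusted p = 0.0476), and FADS1 per FADS2 ranged from 0.11 to 0.26 with a library left out. No paired analysis was possible because the columns of the high glucose libraries carry no label that pairs them with control replicates. FPKM fold changes are on the log2(FPKM + pseudocount) scale, which understates changes of low genes. The 10 genes had at least 955 counts in every library, and whether depth limited a call was not tested.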
